A study of Mus musculus with 40 samples.

Results

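Delta-valerobetaine (VB) was given to germ-free male mice on either of 2 diets, and the VB effect shared by both diets was measured in the liver by RNA sequencing. All 20 mice of the series entered the comparison, 10 that received VB and 10 that received vehicle, in a model with a term for diet and a term for VB. Of 12616 genes tested, 5318 (42.2%) had a VB change of the same sign on both diets, and genes called for VB were kept for discussion where this held. The mice were C57BL/6 males raised without any microbes, sampled at postnatal day 64 after 6 weeks of dosing. The 4 groups of 5 mice were control diet with vehicle, control diet with VB, Western diet with vehicle and Western diet with VB. The labels give neither the dose and route of VB nor the composition of vehicle and diets.

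VB is a trimethylated compound that gut bacteria make. It resembles the precursor of carnitine, the carrier that brings long-chain fatty acids into mitochondria for oxidation. The liver takes up such compounds, makes carnitine, and adjusts fat oxidation, glucose production, amino acid breakdown and the clearance of foreign compounds with feeding state, stress hormones and time of day.

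Depth was 16315342 to 24566686 counts per mouse, with overlapping ranges in the 4 groups. Hepatocyte marker genes summed to 63300 to 83200 CPM, counts scaled to library size, in vehicle mice and 63000 to 81200 in VB mice, and skeletal muscle markers reached at most 6.34 CPM. Other measures moved with the groups. Circadian clock genes, 21 in number, were reduced to a clock score (their leading principal component, with unit SD). With vehicle its mean was -1.30 ± 0.39 (SD, n = 5) on control diet and 1.29 ± 0.13 on Western diet, and with VB it was -0.22 ± 0.25 and 0.23 ± 0.42. Major urinary protein (Mup) genes took on average 11.1% and 11% of counts in vehicle mice on control and Western diet, and 7.56% and 20.3% in VB mice. Western diet vehicle mouse 4 stood apart, with 4.62% of counts from mitochondrially encoded genes. In 1 of the 40 lane files, from Western diet VB mouse 1, the treatment label says vehicle where the title says VB, and the mouse was kept with VB.

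Only 6 genes were called for VB over both diets, which is 0.0476% of the genes tested. Egfr, Got1 and Trib1 were higher in VB mice (3 genes, 0.0238%), and Slc9a9, Tle3 and Ubd were lower (3 genes, 0.0238%). All 6 had the same sign on both diets. Each had the same adjusted p of 0.0497 in edgeR's quasi-likelihood test with Benjamini-Hochberg adjustment, just inside the threshold of 0.05. On unadjusted p under 0.05, 1041 genes (8.25%) differed, 499 of them higher (3.96%) and 542 lower (4.3%), and 921 (7.3%) had the same sign on both diets. The calls depended on single mice. With 1 mouse left out at a time, 5 genes were called without control diet vehicle mouse 5, and 3 of them (Tle3, Egfr and Ubd) were among the 6. The others were Sdc4 and Cyp2b13, a cytochrome P450 gene named here after its values were seen. Without control diet VB mouse 1 or 2, or Western diet vehicle mouse 5, the 2 called genes were Egfr and Cyp2b13. Without Western diet VB mouse 1, 4 or 5 there were also 2, both of the 6 each time, and without any of the other 13 mice there were 0. None of the 6 genes changed sign in those fits, which is no support, as they were picked for a small p in the same mice.

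**Figure D1:**
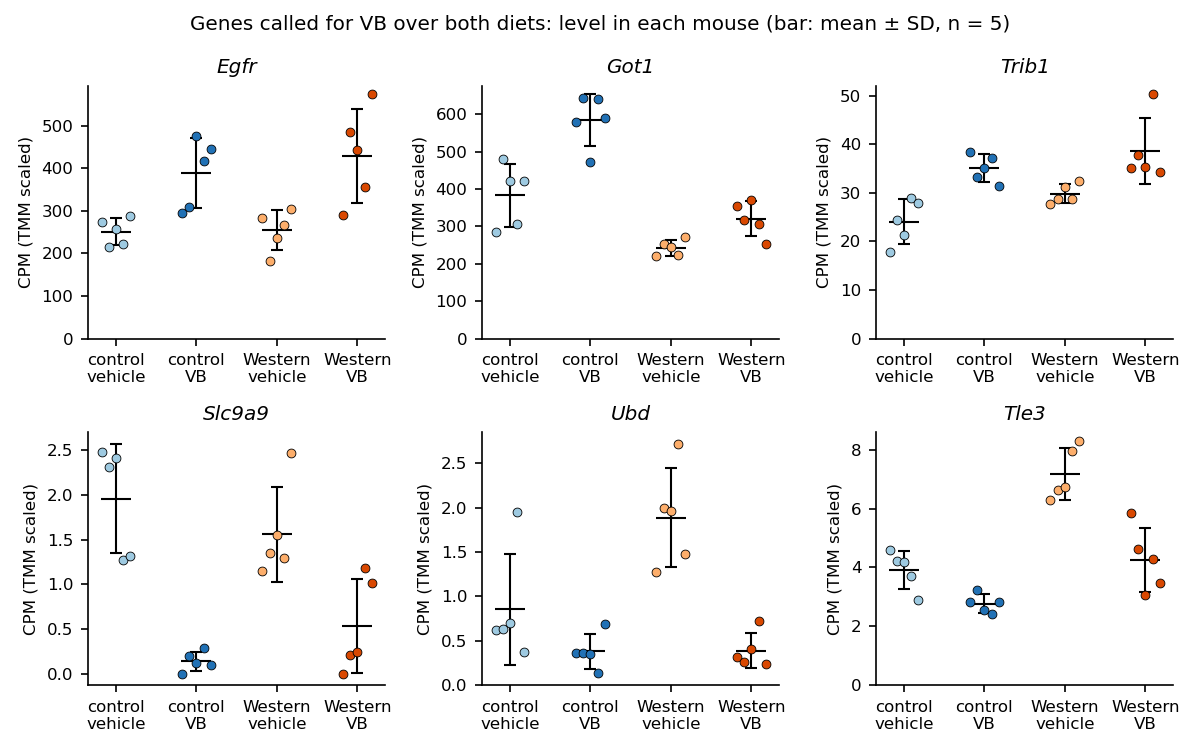
Expression of the 6 called genes in each mouse, in CPM on scaled library sizes, by diet and treatment; bars show the mean and SD of 5 mice. For Trib1 every VB mouse lies above every vehicle mouse on the same diet, while Got1 values overlap on both diets.

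Egfr encodes the epidermal growth factor receptor, a receptor tyrosine kinase that hepatocytes carry at high levels and that takes part in liver regeneration. The gene lies on chromosome 11, 16752203 to 16918158 on the plus strand (GRCm38). Control diet vehicle mice had 274, 214, 258, 222 and 287 CPM, and control diet VB mice had 296, 309, 477, 418 and 447 CPM. In Western diet vehicle mice the values were 284, 183, 237, 266 and 304 CPM, against 291, 486, 442, 357 and 574 CPM with VB. The groups did not overlap on control diet, as for 490 of all genes (3.88%). On Western diet, where 702 genes (5.56%) did not overlap, 1 VB mouse at 291 CPM lay below the highest vehicle mouse. Over both diets Egfr was 1.62-fold higher with VB, a log2 change of 0.69 (SE 0.12). The log2 changes were 0.63 (SE 0.17) on control diet and 0.75 (SE 0.17) on Western diet, and their difference of 0.12 had a 95% interval of -0.39 to 0.63. Western against control diet, a term that called 926 genes higher (7.34%) and 810 lower (6.42%), left Egfr at a log2 change of 0.08 (adjusted p = 0.695 in edgeR).

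Got1 encodes the cytosolic aspartate aminotransferase, which exchanges amino groups between aspartate and glutamate and serves the malate-aspartate shuttle and gluconeogenesis. It lies on chromosome 19, 43499752 to 43524605 on the minus strand. Control diet vehicle mice had 285, 481, 421, 308 and 422 CPM, and control diet VB mice had 579.8, 643, 474, 642 and 589 CPM. Western diet vehicle mice had 221, 254, 244, 222 and 272 CPM, against 354, 318, 372, 305 and 252 CPM with VB. A single mouse made the groups overlap on each diet, VB mouse 3 on control diet and VB mouse 5 on Western diet. The VB change over both diets was 0.51 on the log2 scale (SE 0.10), or 1.42-fold, with 0.61 (SE 0.13) on control diet and 0.40 (SE 0.13) on Western diet. The difference between diets was -0.21 (95% interval -0.61 to 0.18). Got1 also differed with diet, by -0.76 on the log2 scale (SE 0.10, adjusted p = 7.58e-06 in edgeR). The VB mice on Western diet, at 320.25 CPM ± 46.6 (SD, n = 5), were thus still below the vehicle mice on control diet at 383 CPM ± 83.6 in mean, with overlapping values.

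Trib1 encodes a pseudokinase that brings the transcription factor C/EBP alpha to the ubiquitin ligase COP1 for degradation, and it is known for a role in hepatic lipid handling. Its position is chromosome 15, 59648350 to 59657099 on the plus strand. Control diet vehicle mice had 17.8, 24.3, 21.3, 28.9 and 27.95 CPM, and control diet VB mice had 38.3, 33.2, 35.2, 37.3 and 31.4 CPM. On Western diet the vehicle mice had 27.7, 28.7, 31.3, 28.8 and 32.45 CPM and the VB mice 35.2, 37.9, 35.2, 50.4 and 34.3 CPM. It was the only one of the 6 genes whose groups did not overlap on either diet. The log2 change was 0.46 over both diets (SE 0.09), or 1.37-fold, 0.54 (SE 0.12) on control diet and 0.37 (SE 0.12) on Western diet. These differed by -0.17 (95% interval -0.53 to 0.19). The transcript of its known substrate, Cebpa, had a VB change of -0.00083 on the log2 scale (SE 0.085, adjusted p = 0.999 in edgeR). It had 0.24 (SE 0.097) on control diet and -0.24 (SE 0.097) on Western diet, which differed (adjusted p = 0.0353). Cebpa was picked for this relation and not for its values.

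Slc9a9 encodes NHE9, a sodium-proton exchanger of endosomes that sets their acidity. It lies on chromosome 9, 94669909 to 95230445 on the plus strand. It had the largest log2 change of the 6 genes, and few reads, 0 to 48 per mouse. Control diet vehicle mice had 2.48, 2.31, 2.42, 1.27 and 1.32 CPM, and control diet VB mice had 0, 0.20, 0.12, 0.28 and 0.091 CPM. Western diet vehicle mice had 1.14, 1.345, 1.55, 1.29 and 2.47 CPM, against 0, 0.21, 0.25, 1.18 and 1.01 CPM with VB. The groups were apart on control diet, and on Western diet only VB mouse 4, at 1.18 CPM, reached the lowest vehicle mouse. The VB change was -2.49 on the log2 scale (SE 0.47), or 5.6-fold lower. It was -3.77 (SE 0.62) on control diet and -1.53 (SE 0.54) on Western diet. The difference of 2.24 had a 95% interval of 0.47 to 4.01, but did not pass the adjustment over all genes (adjusted p = 0.111 in edgeR).

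Tle3 encodes a corepressor of the Groucho family, which transcription factors recruit to silence genes. It lies on chromosome 9, 61372366 to 61418497 on the plus strand. Control diet vehicle mice had 4.60, 4.20, 4.19, 3.71 and 2.90 CPM, and control diet VB mice had 2.81, 3.24, 2.55, 2.40 and 2.83 CPM. Western diet vehicle mice had 6.29, 6.63, 6.72, 7.94 and 8.29 CPM, against 5.84, 4.61, 3.07, 4.27 and 3.46 CPM with VB. The groups were apart on Western diet, and on control diet vehicle mouse 5 lay within the VB range. The log2 change was -0.63 over both diets (SE 0.12), or 1.55-fold lower, with -0.50 (SE 0.17) on control diet and -0.76 (SE 0.16) on Western diet. Their difference was -0.26 (95% interval -0.76 to 0.24). Western diet had the opposite direction, with a diet log2 change of 0.74 (SE 0.12, adjusted p = 0.000178 in edgeR). Its paralog Tle1, named for comparison, had a log2 VB change of 0.54 (SE 0.092) on Western diet and -0.19 (SE 0.091) on control diet, and these differed (adjusted p = 0.00122 in edgeR).

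Ubd encodes FAT10, a ubiquitin-like protein that marks proteins for the proteasome and is induced by tumour necrosis factor and interferon gamma. It lies on chromosome 17, 37193892 to 37196095 on the plus strand, and was also low, at 3 to 43 reads per mouse. Control diet vehicle mice had 0.62, 0.63, 0.70, 1.95 and 0.37 CPM, and control diet VB mice had 0.36, 0.36, 0.35, 0.14 and 0.69 CPM. Western diet vehicle mice had 1.28, 1.99, 1.96, 2.72 and 1.48 CPM, against 0.31, 0.26, 0.41, 0.72 and 0.24 CPM with VB. The values overlapped on control diet and were apart on Western diet. The log2 change was -1.72 over both diets (SE 0.32), or 3.30-fold lower, with -1.17 (SE 0.44) on control diet and -2.25 (SE 0.43) on Western diet. The difference of -1.07 had a 95% interval of -2.39 to 0.25. In the same samples, Kupffer cell and macrophage markers summed to 181 to 605 CPM in vehicle mice and 231 to 449 CPM in VB mice, and lymphocyte markers to 5.73 to 20.9 CPM and 7.09 to 20.2 CPM. No member of either marker list was called for VB. With 0.0476% of all genes called, lists this short would rarely hold a call. In bulk liver, fewer cells of a type and less RNA per cell cannot be told apart.

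None of the differences between diets passed the threshold for these 6 genes, which does not show that their changes were alike, and the intervals above give the sizes left possible. Taken 1 diet at a time and adjusted over all genes, Slc9a9 was called on control diet (adjusted p = 0.0139 in edgeR), where 19 genes were called in all (0.151%). Egfr, Tle3 and Ubd were called on Western diet (adjusted p = 0.00842, 0.00587 and 0.00264), where 907 genes were called (7.19%). Got1 and Trib1 were called on neither diet alone.

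The 250 bases before the annotated start of 3 called genes are shown because they are the sequence next to which these changes were measured. Sequences are those of RefSeq on GRCm38.p6, in the direction of transcription, and 5 of the 6 genes had an entry. Capitals mark matches, on either strand, to 7 short motifs of the regulators named in the gene lists. They were the E-box CACGTG, the D-box TTATGNAA, the ROR element AGGTCA, the antioxidant response element TGACNNNGC, the heat shock element GAANNTTC, the glucocorticoid response element and the peroxisome proliferator response element. The last holds the ROR element within it. The promoter of Egfr is at chr11:16751953-16752202 (plus strand), that of Got1 at chr19:43524606-43524855 (minus strand) and that of Tle3 at chr9:61372116-61372365 (plus strand).
Egfr: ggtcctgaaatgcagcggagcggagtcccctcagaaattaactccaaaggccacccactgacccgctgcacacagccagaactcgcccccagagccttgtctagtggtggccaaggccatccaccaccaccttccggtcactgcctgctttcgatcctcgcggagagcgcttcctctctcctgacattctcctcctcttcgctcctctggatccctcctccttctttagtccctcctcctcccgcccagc
Got1: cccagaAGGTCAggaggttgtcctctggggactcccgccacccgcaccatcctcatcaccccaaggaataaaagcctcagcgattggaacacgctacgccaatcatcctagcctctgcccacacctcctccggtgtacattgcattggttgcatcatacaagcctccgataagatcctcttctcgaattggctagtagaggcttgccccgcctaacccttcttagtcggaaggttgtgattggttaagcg
Tle3: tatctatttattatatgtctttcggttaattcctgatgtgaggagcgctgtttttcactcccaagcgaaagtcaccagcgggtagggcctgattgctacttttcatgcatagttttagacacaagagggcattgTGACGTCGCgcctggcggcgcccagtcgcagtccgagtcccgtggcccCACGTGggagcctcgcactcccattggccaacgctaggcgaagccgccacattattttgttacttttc
Egfr held no match, as did Slc9a9 and Ubd. Got1 held 1 ROR element, 244 to 239 bases before the start. This motif was found in 14% of 32851 promoters of this length and 11.5% of 12111 promoters of tested genes. Tle3 held an E-box 68 to 63 bases before the start, found in 6.02% of promoters and 8.27% of those of tested genes. It also held an antioxidant response element 116 to 108 bases before the start, found in 10.2% and 11.6%. No motif was found in more than 1 of these 5 genes. These are matches of letters and say nothing of binding.

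Just outside the threshold stood Sdc4, Ugdh and Uck1. Sdc4 encodes syndecan-4, a cell-surface heparan sulfate proteoglycan. It was 266 to 339 CPM in control diet vehicle mice and 333 to 401 CPM with VB, and 199.7 to 317 CPM in Western diet vehicle mice and 348 to 387 CPM with VB. Only the Western diet groups were apart, and its log2 change over both diets was 0.39 (SE 0.08, adjusted p = 0.0566 in edgeR). Ugdh makes UDP-glucuronate, the sugar donor for glucuronidation. Its range was 167 to 222 CPM in control diet vehicle mice and 153 to 182 CPM with VB, and on Western diet it was 150.4 to 228 CPM and 113 to 149.8 CPM. Its log2 change was -0.39 (SE 0.08, adjusted p = 0.102), with -0.27 (SE 0.11) on control diet and -0.51 (SE 0.11) on Western diet. Uck1, a uridine-cytidine kinase, had a log2 change of -0.33 (SE 0.07, adjusted p = 0.115), from 44.2 to 53.5 CPM in control diet vehicle mice to 36.6 to 46.3 CPM with VB, and from 64.2 to 83.1 CPM to 47.4 to 62.7 CPM on Western diet. The next in rank were L3hypdh at -0.49 (SE 0.10) and Wfdc2 at -0.95 (SE 0.20), both with an adjusted p of 0.115. L3hypdh encodes a dehydratase of hydroxyproline breakdown and Wfdc2 a small secreted protein. For both of these the VB change differed between diets (adjusted p = 0.0371 and 0.0288 in edgeR), with -0.20 and -0.34 on control diet against -0.78 and -1.49 on Western diet.

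**Figure D2:**
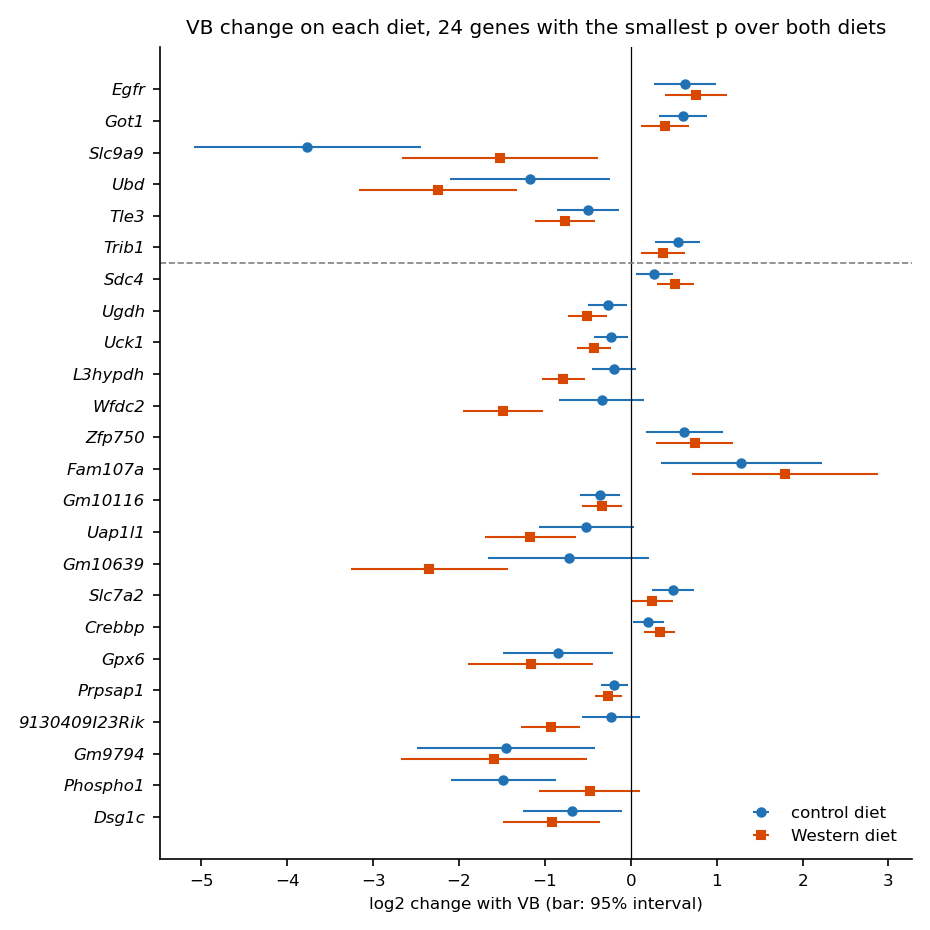
Log2 VB change with its 95% interval on control diet (circles) and Western diet (squares) for the 24 genes with the smallest p over both diets; the dashed line parts the 6 called genes from the rest. For Egfr, Zfp750, Gm10116 and Gm9794 the markers of the diets lie side by side, while for L3hypdh, Wfdc2 and 9130409I23Rik the Western diet change lies further from 0 and the control diet interval includes 0.

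A stricter question is whether a gene changed on each diet in its own right. For this the larger of the per-diet p-values was taken wherever the signs were the same, and was adjusted over all genes. No gene passed in edgeR (0 of 12616, 0%) or in DESeq2. An unadjusted p under 0.05 was found for 1354 genes (10.7%) on control diet and for 2560 (20.3%) on Western diet. With such a p on each diet, 56 genes (0.444%) changed in the same direction, 34 higher (0.269%) and 22 lower (0.174%). In DESeq2 there were 64. In opposite directions there were 469 such genes (3.72%), of which 227 were higher on control diet (1.8%) and 242 lower (1.92%). The 10 genes with the smallest such p were Egfr (p = 0.00124), Trib1 (p = 0.00538), Got1 (p = 0.00609), Gm10116, Gm9794, Zfp750, Tle3, Fam107a, Slc9a9 and Gpx6 (p = 0.0104), all unadjusted values from edgeR's fit.

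Among those not called over both diets, Zfp750 and Fam107a were higher with VB. Zfp750, a zinc finger transcription factor known from epidermal differentiation, had 3.46, 5.095, 3.87, 6.02 and 5.59 CPM in control diet vehicle mice and 8.88, 6.805, 7.37, 7.998 and 6.08 CPM with VB. On Western diet it had 6.73, 6.38, 3.21, 2.58 and 5.93 CPM with vehicle and 9.25, 7.42, 7.04, 8.90 and 9.52 CPM with VB. Its groups did not overlap on either diet, and its log2 changes were 0.62 (SE 0.21) and 0.74 (SE 0.21), with an adjusted p of 0.138 over both diets in edgeR. Fam107a, an actin-associated protein known as induced by stress and glucocorticoids, had log2 changes of 1.29 (SE 0.44) on control diet and 1.79 (SE 0.51) on Western diet. It was low, with a control diet mean of 0.99 CPM ± 0.48 (SD, n = 5) in vehicle mice and 2.41 ± 0.84 with VB, and 0.36 ± 0.29 and 1.29 ± 0.79 on Western diet, with overlapping values.

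Gm10116, Gm9794 and Gpx6 were lower with VB, again without passing over both diets. Gm10116 had log2 changes of -0.36 (SE 0.11) on control diet and -0.33 (SE 0.11) on Western diet, the closest pair among the 10 genes. Its mean went from 136 CPM ± 9.77 (SD, n = 5) to 106 ± 6.41 and from 158 ± 24.4 to 126 ± 21.25. Gm9794 is annotated as a processed pseudogene, so its reads may belong to a near-identical parent gene. Its log2 changes were -1.45 (SE 0.49) and -1.59 (SE 0.51). Gpx6, a glutathione peroxidase, had log2 changes of -0.85 (SE 0.30) and -1.17 (SE 0.34).

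Full separation of the groups in the same direction on both diets was found for 5 genes (0.0396%), 4 higher (0.0317%) and 1 lower (0.00793%), against 58 (0.46%) in opposite directions. Besides Trib1 and Zfp750 they were Phf3, which encodes a protein that binds RNA polymerase II, Eif4ebp2, a repressor of translation, and Pepd, a peptidase that splits proline dipeptides. These 3 genes are named after their values were seen. Their log2 changes were small, at 0.21 (SE 0.06) for Phf3, 0.17 (SE 0.05) for Eif4ebp2 and -0.19 (SE 0.05) for Pepd, and none was called (adjusted p = 0.226, 0.362 and 0.252 in edgeR).

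Genes of hormone and stress response were described by list. The glucocorticoid receptor and its induced genes mediate the liver's response to stress hormones and fasting. Of 24 tested, 1 was called, Got1, and 10 had an unadjusted p under 0.05, all of them higher, against 3.96% of all genes. The list's median log2 change was 0.29 over both diets, 0.18 on control diet and 0.26 on Western diet, beside -0.01 over all genes. Same-sign changes were found in 13 of the 24, against 42.2% of all genes. Of these, 11 were higher on both diets, beside 2500 of all 12616 genes. For 7 of the 24 the VB changes differed between diets, against 7.64% of all genes. Some of these 7 are named after their values were seen. Fkbp5 had 1.14 on control diet and -0.70 on Western diet, and Tsc22d3 had -0.34 and 1.47. Mt1 had 1.87 and -2.25, and Mt2 had 2.05 and -2.42. Pck1, the rate-limiting enzyme of gluconeogenesis, had 0.32 (SE 0.17) on control diet and 0.73 (SE 0.17) on Western diet, with an adjusted p of 0.161 over both in edgeR. Tat, the tyrosine aminotransferase, ranged from 1727 to 3475 CPM in control diet vehicle mice and 1379 to 4166 CPM with VB, but from 429.9 to 877 CPM and 1829 to 3528 CPM on Western diet. Its VB changes of 0.04 (SE 0.25) and 1.98 (SE 0.26) differed (adjusted p = 0.00236 in edgeR).

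Immediate-early genes encode factors that cells switch on within minutes of a stimulus. None of 15 was called, beside 0.0476% of all genes. An unadjusted p under 0.05 was found for 6, all higher, against 3.96% of all genes. In 12 the sign was the same on both diets, against 42.2% of all genes. Of these, 9 were higher on both, beside 2500 of all 12616 genes. The medians were 0.37 over both diets, 0.35 on control diet and 0.34 on Western diet. Ier2, the member with the smallest p, had 0.41 (SE 0.16) on control diet and 0.34 (SE 0.16) on Western diet (adjusted p = 0.306 over both in edgeR). Its means were 29.4 CPM ± 4.02 (SD, n = 5) and 39.0 ± 9.98 with VB on control diet, and 25.1 ± 3.13 and 31.8 ± 6.35 on Western diet. Egr1 and Junb, picked after their values were seen, had log2 changes of 1.35 (SE 0.52) and 0.73 (SE 0.23) over both diets. Of 20 genes of gluconeogenesis and the fasting response, 1 was called (Got1) and 6 had an unadjusted p under 0.05, all higher, with medians of 0.14 and 0.27 on the diets, again beside 3.96% of all genes. Of 50 genes of amino acid catabolism, Got1 was again the only call, and the median over both diets was 0.02. At an unadjusted p under 0.05, 9 of them were higher and 1 lower (3.96% and 4.3% of all genes). These lists share members, so their counts are not separate. Got1, Pck1 and Igfbp1 were counted in both the glucocorticoid and the gluconeogenesis list. Got1, Sds and Tat were counted in both the glucocorticoid and the amino acid list.

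Genes that clear foreign compounds had medians below 0. Phase II enzymes attach glucuronate, sulfate or glutathione to compounds, and none of 42 was called, beside 0.0476% of all genes. Of these, 13 were lower and 1 higher at an unadjusted p under 0.05, against 4.3% and 3.96% of all genes. In 21 the change was lower on both diets and in 1 higher on both, beside 2818 and 2500 of all 12616 genes. The medians were -0.08 on control diet and -0.28 on Western diet. For 6 of the 42 the VB changes differed between diets, against 7.64% of all genes. Besides Ugdh, the epoxide hydrolase Ephx1 had -0.15 (SE 0.11) on control diet and -0.63 (SE 0.11) on Western diet, with an adjusted p of 0.161 over both in edgeR. Of 30 targets of NRF2, the regulator of antioxidant genes, 0 were called and 10 were lower at an unadjusted p under 0.05, against 4.3% of all genes. In 15 the change was lower on both diets, beside 2818 of all 12616 genes, and the medians were -0.09 and -0.12. Ugdh and Ephx1 belong to this list as well. Of 30 cytochrome P450 and other genes of the CAR and PXR axis, 11 were lower at an unadjusted p under 0.05, against 4.3% of all genes. None of the 30 was called. Their median was 0.03 on control diet and -0.54 on Western diet, and 15 of them had a VB change that differed between diets (7.64% of all genes), so the median over both diets of -0.24 came from Western diet. In 9 of the 30 the change was lower on both diets, not far from the share of all genes (2818 of 12616). Among the 9 was the P450 enzyme Cyp2c55 at -0.75 (SE 0.20) and -0.48 (SE 0.23).

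**Figure D3:**
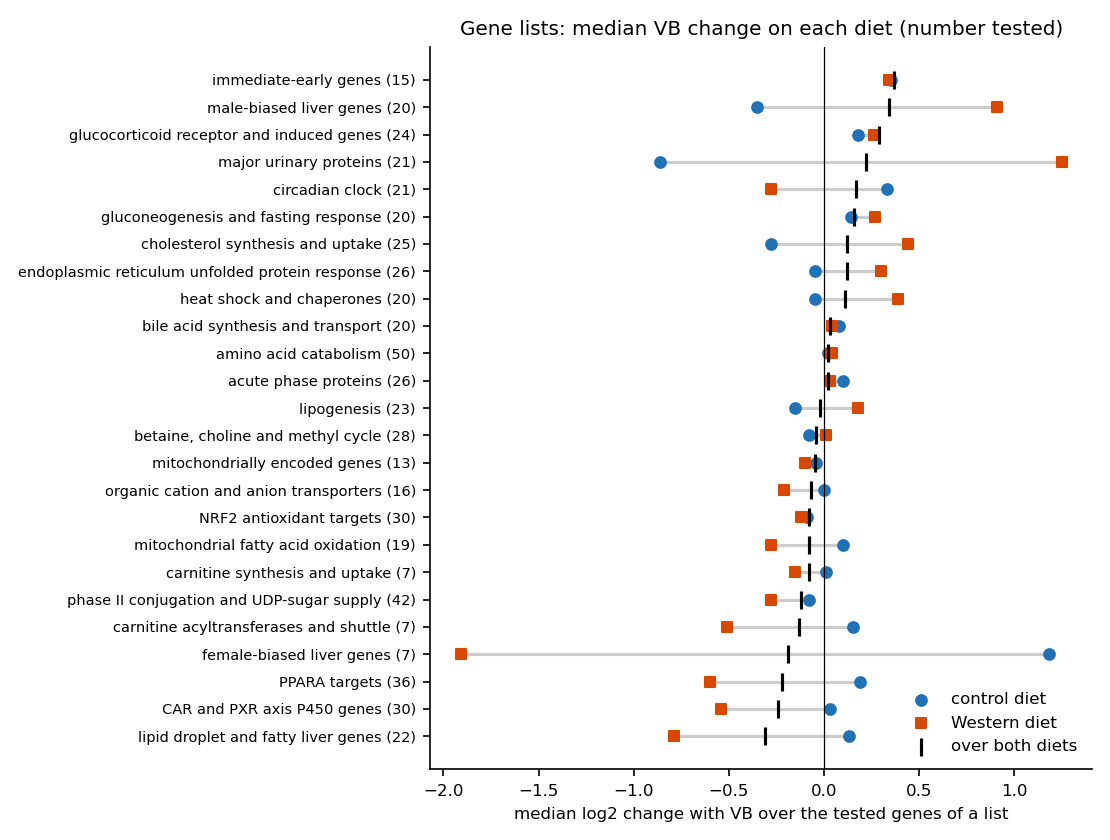
Median log2 VB change over the tested genes of each list with more than 4 tested genes, on control diet (circles), Western diet (squares) and over both (bars); the number tested is in parentheses. Immediate-early genes, glucocorticoid genes and gluconeogenesis genes have medians above 0 on both diets. The glucocorticoid and gluconeogenesis lists share members, among them Got1, Pck1 and Igfbp1. Major urinary protein, male-biased, PPARA and lipid droplet genes have medians of opposite sign on the diets.

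Carnitine and fatty acid oxidation genes held no call over both diets, beside 0.0476% of all genes. Of 7 tested genes of carnitine synthesis and uptake, none had an unadjusted p under 0.05, beside 8.25% of all genes. The sign was the same on both diets in 2, beside 42.2% of all genes. With 7 genes these counts cannot be told from the shares of all genes. Slc22a5, the carnitine transporter of the cell membrane, had a control diet mean of 20.7 CPM ± 6.07 (SD, n = 5) with vehicle and 27.4 ± 10.1 with VB, but 43.7 ± 8.68 and 18.4 ± 3.25 on Western diet. Its VB changes of 0.40 (SE 0.23) and -1.25 (SE 0.23) differed (adjusted p = 0.00322 in edgeR), and the change over both diets was -0.43 (SE 0.26, adjusted p = 0.704). Bbox1, which makes carnitine from its precursor, had 0.08 (SE 0.09) on control diet and -0.33 (SE 0.09) on Western diet, and these differed too (adjusted p = 0.0387). Tmlhe and Aldh9a1, earlier enzymes of the same synthesis, had changes over both diets of -0.11 (SE 0.08) and -0.08 (SE 0.06). Cpt1a, the gatekeeper of mitochondrial fatty acid import, was near 0 over both diets at 0.03 (SE 0.16), with 0.56 (SE 0.15) on control diet and -0.51 (SE 0.15) on Western diet. Crat, which moves acetyl groups onto carnitine, had 0.20 (SE 0.18) and -0.65 (SE 0.18).

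Fat storage and trimethylamine oxidation held no call either, again beside 0.0476% of all genes. Of 36 PPARA targets 8 were lower at an unadjusted p under 0.05, against 4.3% of all genes, and the medians were 0.19 and -0.60 on control and Western diet. In 21 of them the VB changes differed between diets, against 7.64% of all genes. Of 22 lipid droplet genes 8 were lower, also beside 4.3%, with medians of 0.13 and -0.79. Cidec, a lipid droplet protein, had 0.80 (SE 0.50) on control diet and -3.13 (SE 0.42) on Western diet, and Pparg, the adipogenic nuclear receptor, 0.45 (SE 0.23) and -1.64 (SE 0.23). Adipocyte markers summed to 8.65 to 289 CPM in vehicle mice and 8.08 to 89.1 CPM in VB mice, and their part in these values was not tested. Of the flavin monooxygenases, which oxidise trimethylamine, 4 were tested. Fmo1 had -0.28 (SE 0.10, adjusted p = 0.428 in edgeR) and Fmo5 -0.12 (SE 0.08) over both diets. Of 28 genes of betaine, choline and the methyl cycle, 1 was higher and 3 lower at an unadjusted p under 0.05. The shares of all genes were 3.96% and 4.3%, and the list's median over both diets was -0.04.

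Of the 21 clock genes 6 had the same sign on both diets, against 42.2% of all genes, and 13 had VB changes that differed, against 7.64%. Nfil3, a repressor of the clock, had -0.66 (SE 0.16) on control diet and 1.31 (SE 0.16) on Western diet, and Dbp, a clock output factor, 3.03 (SE 0.64) and -1.12 (SE 0.56). Per1, which glucocorticoids also induce, was an exception in sign, with 0.63 (SE 0.14) and 0.22 (SE 0.14), and was not called over both diets (adjusted p = 0.187 in edgeR). The heat shock gene Hspa1a, whose reads may be shared with a near-identical copy, had -2.00 (SE 0.35) and 3.05 (SE 0.39). Of 21 Mup genes 1 had the same sign on both diets, and for 17 the VB changes differed.

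Across all 12616 genes the VB changes on the diets ran against each other, with Pearson's r of -0.27 and Spearman's rho of -0.24 across genes, which are not independent and share libraries. The diets share no mice, so neither change uses the other's vehicle group. Of the 907 genes called on Western diet, 197 (21.7%) had the same sign on control diet, and of the 19 called on control diet, 3 (15.8%) had the same sign on Western diet. The VB changes differed between diets for 964 genes (7.64%) in edgeR. Without Western diet vehicle mouse 4 the share of same-sign genes was 35.8% instead of 42.2%, and r was -0.31. With the clock score in the model the share was 32.8% and r was -0.55. At an unadjusted p under 0.05 on each diet 3 genes then had the same sign and 230 opposite signs, instead of 56 and 469. The score moved with VB in opposite directions on the diets, so errors in fitting it enter the per-diet changes with opposite signs. That fit therefore cannot show that the VB changes oppose each other more. Its median SE was 0.264 instead of 0.157 on control diet, and 0.262 instead of 0.158 on Western diet. Without a filter on low counts r was -0.04.

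**Figure D4:**
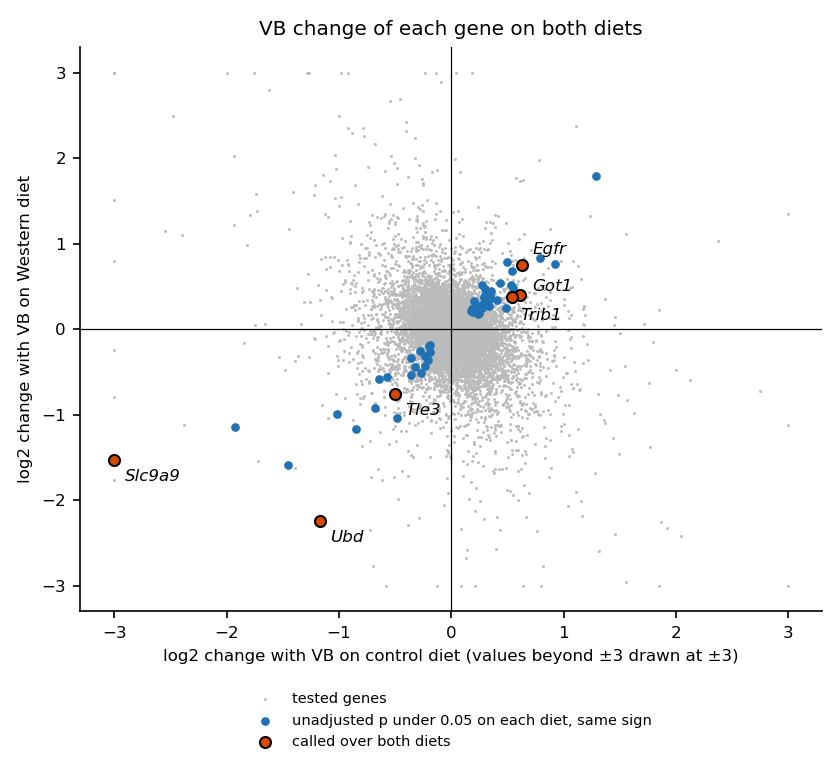
Log2 VB change of each tested gene on control diet (x axis) and Western diet (y axis), with values beyond 3 drawn at 3; blue and orange points together are the 56 genes with an unadjusted p under 0.05 on each diet and the same sign, and orange points the 6 called among them. By the way they were picked, the 56 blue and orange genes lie in the lower left and upper right. There were 469 genes with such p-values and opposite signs, and Slc9a9 sits at the left edge.

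The clock score and the Mup share moved with VB in opposite directions on the diets, and the called genes were set against both. When the clock score entered the model as a covariate, 37 genes were called for VB, 10 higher and 27 lower, including all 6. Of the 37, 34 had the same sign on both diets. The score's shifts with VB were opposite on the diets and nearly cancel over both. Its entry could therefore hardly move the changes over both diets, and these calls are no check against the clock. With the score in the model Egfr changed by 0.69 (SE 0.11) over both diets, but by 1.21 on control diet and 0.14 on Western diet. Got1 had 0.44 and 0.57 and Trib1 0.30 and 0.62. Slc9a9 had -3.19 and -2.12, Tle3 -0.70 and -0.57 and Ubd -2.28 and -1.11. Over all genes the median SE of such per-diet changes was 0.264 and 0.262, instead of 0.157 and 0.158 without the score. Sdc4 and Ugdh were called as well (adjusted p = 0.0217 and 0.0358 in edgeR). With Mup genes left out of the library sizes the same 6 genes were called.

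Other settings moved the number of calls more than the size of the changes. Over the alternatives that left every mouse in, the log2 change ran from 0.68 to 0.71 for Egfr, 0.50 to 0.52 for Got1, 0.45 to 0.47 for Trib1, -0.76 to -0.52 for Tle3, -1.86 to -1.61 for Ubd and -3.05 to -2.16 for Slc9a9. Of 13 such alternatives (12 for Ubd), Egfr was called in 11, Got1 and Trib1 in 9, and the other called genes in 8. DESeq2 called 62 genes and limma-voom 9, each including all 6, while a stricter filter of at least 1 CPM in at least 10 mice and a fit without robust moderation each called 0.

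**Figure D5:**
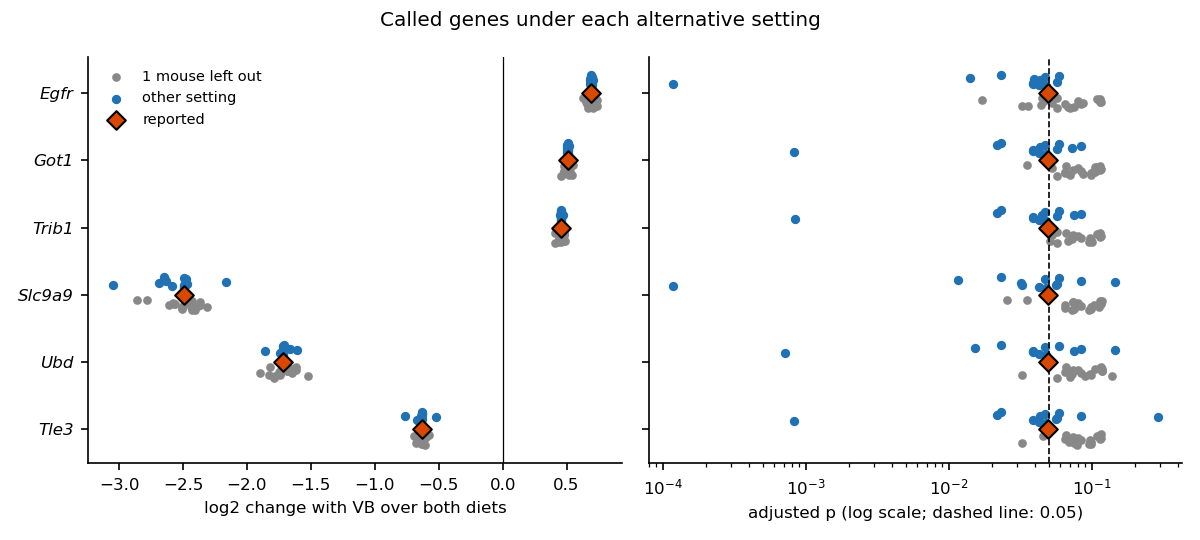
Log2 VB change over both diets (left) and its adjusted p on a log axis (right) for the 6 called genes as reported (diamonds), with 1 mouse left out (grey) and under other settings (blue); the dashed line is 0.05. The log2 changes keep their sign throughout, as picking genes for a small p makes likely. Most points with 1 mouse left out lie above 0.05.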

How the data were processed

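Liver RNA of 20 mice was sequenced, with libraries made from total RNA with a TruSeq kit, per the labels' protocols. Values as deposited are raw read counts for 32544 gene symbols in 40 lane files. Per the submitters' processing notes, the genome was GRCm38. How reads were aligned and counted, against which annotation and with or without strand, is not given in the sources used here. Members of near-identical families are therefore uncertain. The 2 lane files of a mouse were summed (chi-square over degrees of freedom 1.33 to 1.49 between lanes, at least 17.7 between mice). Groups came from the titles. The p-values of changes on each diet and of their differences measure the spread between the 5 numbered mice of a group. Those of the VB term, in the model of diet plus VB, also take in any difference of the VB change between diets.

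Genes were kept by filterByExpr (minimum count 10, minimum total 15), which left 12616 genes with 99.95% of counts, and counts were scaled by TMM factors. The VB term was tested in R 4.3.3 with edgeR 4.0.16 (robust quasi-likelihood, diet plus treatment), with calls at a p under 0.05 after Benjamini-Hochberg adjustment. A fit of 4 groups gave the change on each diet, the difference of these changes and their mean. Fold changes are on the log2 scale, and CPM were computed with the TMM factors applied. Intervals of differences are 95% intervals from the standard error. At 16315342 counts or more per mouse the spread between mice was the main error, except in genes of few reads. The script was tested on simulated data.

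Named genes were those called, the 10 with the smallest larger per-diet p, the leading member of each of 26 pathway lists and fixed genes. The 6 genes next in rank, and other genes where said, were named after their values were seen. The comparison, the lists and the fixed genes were chosen with earlier results of these data known. Positions are from GENCODE M21, and promoter sequences from RefSeq on GRCm38.p6. Alternatives were RLE and upper-quartile scaling, DESeq2 1.42.0, limma-voom (limma 3.58.1), other filters, single lanes, a mouse number block, the clock score as a covariate, Mup genes left out of library sizes, leaving out each mouse in turn and the mean of the 4-group fit. An adjusted p under 0.10 and a fit without robust moderation were added once the data had been seen.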

Additional observations from a re-analysis of the deposited data

Results flagged for a closer look

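Some mice lay far from the other 4 of their group in genes named above. Of 72 groups of 5 checked, 6 were flagged, and chance flags about 1 in 20. In Western diet VB mouse 4 these were Trib1 at 50.4 CPM, Ephx1 at 339 CPM, Sdc4 at 387 CPM and L3hypdh at 30.2 CPM, all high. Ubd in control diet vehicle mouse 4, at 1.95 CPM, and Wfdc2 in Western diet vehicle mouse 4, at 21.5 CPM, were high as well. Without Western diet VB mouse 4 Trib1 was still higher with VB on both diets, as the other 9 VB mice lie above the vehicle mice of their diet. It was called in none of the fits with 1 mouse left out (adjusted p of 0.0506 to 0.116 in edgeR).

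Other genes named by rule had VB changes that differed between diets in edgeR (adjusted p under 0.05), so that their change over both diets averages unlike values. The differences, Western minus control diet on the log2 scale, were negative for Bbox1 (-0.42), Slc25a20 (-0.59), Hadh (-0.60), Plin2 (-0.54), Fmo1 (-0.53), Slc22a5 (-1.65), Cpt1a (-1.06) and Crat (-0.85). They were also negative for Dbp (-4.15), Cidec (-3.93), Pparg (-2.09), L3hypdh (-0.59) and Wfdc2 (-1.15). They were positive for Slco1a1 (0.58), Hsph1 (0.80), Herpud1 (0.92), Tat (1.95), Nfil3 (1.98) and Hspa1a (5.05).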

How the results depend on the processing

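The number of genes called for VB over both diets, 6, was 62 in DESeq2, 0 with the stricter filter, 2 and 10 with the first and second lane, 37 with the clock score as covariate (34 of the same sign), 0 without robust moderation and 20 as the mean of the 4-group fit (19 of the same sign). Leaving out 1 mouse gave 0 to 5. With the mouse number as a replicate block 1 gene was called, Egfr. The labels do not say what a number marks. Deviations of same-numbered mice had a median correlation of 0.04 over 30 pairs (-0.07 to 0.38), with 7 pairs above 0.1. As a hint from the data, 10 of 20 mice were closest to a mouse of their own number. The column names number the control diet VB mice 6 to 10, unlike the titles. The numbers were not taken as pairs, a choice that these correlations do not settle. Scaling by RLE or upper quartile, limma-voom, no filter, Mup genes left out and an adjusted p under 0.10 gave 5 to 9 calls.

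On control diet, where 19 genes were called, there were 29 with upper-quartile scaling, 164 in DESeq2, 40 in limma-voom, 36 with the second lane, 65 with the replicate block, 0 with the clock score, 30 with Mup genes left out, 32 without robust moderation and 85 at an adjusted p under 0.10, and 6 to 66 with 1 mouse left out. On Western diet, where 907 were called, there were 2 with the clock score and 1373 at an adjusted p under 0.10, and 605 to 1225 with 1 mouse left out. The larger per-diet p called 0 genes in all of these. The cause of these shifts was not tested.

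Among named genes the sign turned for Hspa1a in limma-voom (-0.09), and with 1 mouse left out for Cpt1a (-0.05 to 0.11) and mt-Co3 (-0.17 to 0.03). Without Western diet vehicle mouse 4 the median of mitochondrially encoded genes went from -0.054 to 0.112 and that of acute phase genes from 0.023 to -0.017. Reads limit Slc9a9 and Ubd, and 10 mice per arm limit small changes.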

Other observations

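Several genes outside the lists had an unadjusted p under 0.05 on each diet and the same sign. They are named after their values were seen, and none passed the adjustment over both diets in edgeR (adjusted p of 0.149 to 0.354). Genes within these limits numbered 56 in all (0.444%), beside 469 (3.72%) with opposite signs. Pim3, a serine/threonine kinase that growth factors and cytokines induce, had log2 VB changes of 0.79 (SE 0.30) on control diet and 0.84 (SE 0.30) on Western diet. Ccnd1, the cyclin that drives entry into the cell cycle, had -0.64 (SE 0.28) and -0.59 (SE 0.28). The proliferating cell markers summed to 18.6 to 32.6 CPM in vehicle mice and 20.8 to 27.4 CPM in VB mice. Of 9 such markers 2 were lower and 0 higher at an unadjusted p under 0.05, against 4.3% and 3.96% of all genes. Their median log2 changes were -0.13 on control diet and -0.42 on Western diet. Crebbp, a histone acetyltransferase, had 0.20 (SE 0.084) and 0.34 (SE 0.085). Lrp1, an endocytic receptor for lipoprotein remnants, had 0.27 (SE 0.10) and 0.25 (SE 0.10). Irf9, a transcription factor of the interferon response, had 0.28 (SE 0.11) and 0.29 (SE 0.11).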
